A study of Caenorhabditis elegans with 52 samples.

Results

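Wild-type N2 Caenorhabditis elegans kept for 18 h in the MEK inhibitor U0126 were compared with N2 worms kept for 18 h in its vehicle, DMSO. The comparison rests on 4 of the 52 libraries of the series, chosen by their titles, with 2 libraries per group, and on all genes of the count tables. The animals were whole young adult hermaphrodites, grown on plates from synchronized first-stage larvae and then held in 1 mL liquid S medium, fed OP50 bacteria, with 100 uM U0126 or with DMSO alone. Both groups are therefore in liquid culture, and both carry the wild-type genotype. N2 libraries of 0, 1, 2 and 6 h and the 18 h libraries of puf-8; lip-1 double mutants (PL below, 2 per treatment) are used only to place the 18 h response. Polyadenylated RNA was sequenced, and the labels do not say whether replicates came from separate cultures, so the spread between replicates may be technical. The p values rest on a spread estimated over all 52 libraries.

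U0126 blocks MEK, the kinase that activates the ERK protein MPK-1. In the hermaphrodite germline, RAS-ERK signalling acts in meiotic progression of pachytene cells, in oocyte growth and maturation and in the choice between sperm and oocyte, and in the soma it acts in vulval and other cell fates. A lipophilic compound can also be handled as a foreign chemical, through cytochrome P450 enzymes that oxidize it and transferases that conjugate it, most of them in the intestine. A whole adult hermaphrodite contains germ cells, oocytes, yolk made by the intestine, somatic tissues and, once it has ovulated, embryos in the uterus.

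Depth was 10.951 and 16.76 in DMSO and 25.603 and 16.662 in U0126, in units of 1e6 counts assigned to genes. Over 8793 genes, Pearson r of log2 CPM was 0.9946 between the DMSO replicates and 0.9971 between the U0126 replicates, against 0.861 to 0.871 for libraries of different groups. Genes are not independent of one another, so these values only describe the libraries. The yolk gene vit-2 and the oocyte yolk receptor rme-2 were abundant in all 4 libraries, at 16920 CPM (counts per 1e6 assigned counts) or more and 994 CPM or more, which fits the labelled adult hermaphrodites. Fitted alone, the 4 libraries gave a common dispersion of 0.0021, but in the fit used they share 1 estimate of the spread with the 48 others. Among those, the library labelled N2 untreated replicate 2 goes against its group, with major sperm protein mRNAs summing to 22230 CPM against 24.3 in its partner, and it raised the common dispersion of the fit from 0.0626 to 0.129. Among the genes named here, its removal took the call from 0 genes and gave one under TMM to mpk-1, lip-1, gld-1, glp-1, fog-3, tra-2, lin-41, oma-1 and oma-2, whose values without it are given beside them.

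A large share of all genes changed, and how many rose depended on the scaling. Under TMM scaling (trimmed mean of M values) 2465 of 16462 genes rose and 4999 fell, or 15 and 30.4 percent, in edgeR's quasi-likelihood test at a Benjamini-Hochberg adjusted p under 0.05. Under RLE scaling (relative log expression, a median of ratios) 4658 rose and 3127 fell, or 28.3 and 19 percent. The median log2 fold change of all genes tested was -0.40 under TMM and 0.00 under RLE, and over the 13521 genes whose mean reached 1 CPM in either group it was -0.57 and -0.11. The shift between scalings was 0.45 on the log2 scale. The calls were nested: each of the 2465 genes that rose under TMM also rose under RLE, each of the 3127 that fell under RLE also fell under TMM, and 0 genes were called in opposite directions. These 2465 rises (15 percent) and 3127 falls (19 percent) are called here "under both scalings". Another 2193 genes rose under RLE only and 1872 fell under TMM only.

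The TMM reference library was a PL U0126 18 h library. With N2 DMSO 18 h replicate 1 as the reference, 4178 genes rose and 3783 fell, between the splits of the 2 scalings. Scaling by total counts gave 1661 rises and 5473 falls. Without the filter on low counts the split turned, with 4562 of 28262 genes rising and 1693 falling under TMM. Without N2 untreated replicate 2 there were 3811 rises and 5972 falls under TMM. A fit of the 4 libraries alone called 5252 rises and 6251 falls. Leaving out a single library lowered the total of 7464 calls to 5022 (without DMSO replicate 1), 4550 (without DMSO replicate 2), 4018 (without U0126 replicate 1) and 4251 (without U0126 replicate 2). In these fits the lone library of a group is assumed to vary like the other groups.

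**Figure D1:**
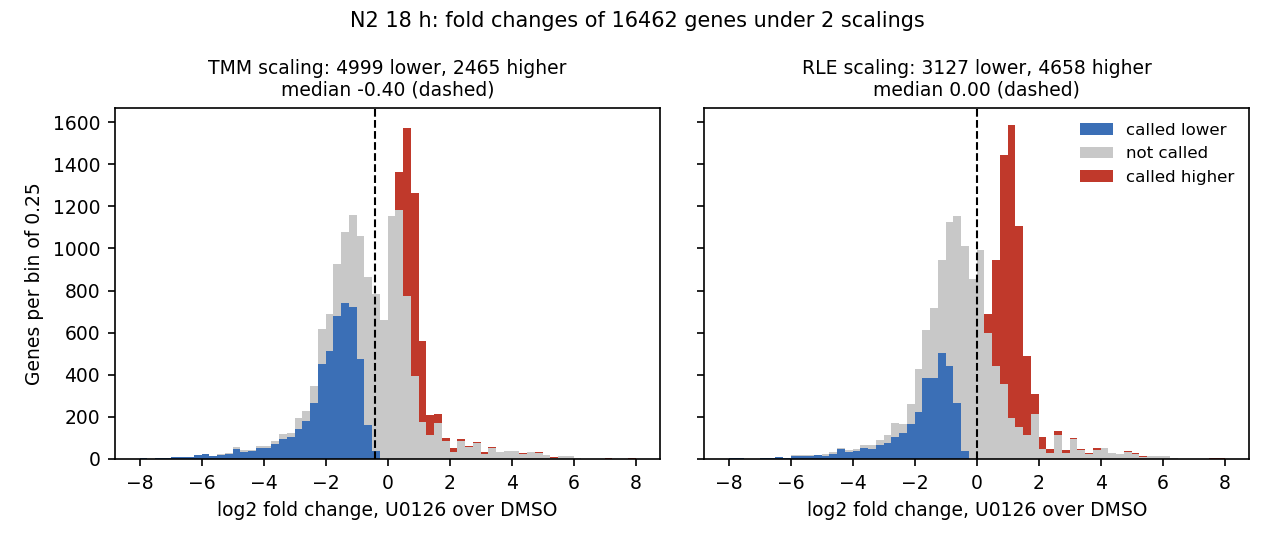
Numbers of genes (y axis, bins of 0.25) by fitted log2 fold change of U0126 over DMSO in N2 at 18 h (x axis), under TMM (left) and RLE (right); red and blue bars are genes called higher and lower, grey bars genes not called, and the dashed line is the median of all 16462 genes. The median lies at -0.40 under TMM and at 0.00 under RLE.

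Cytochrome P450 genes of the cyp-35 family were among the largest rises. Of 70 P450 genes tested, 13 rose and 2 fell under both scalings, against 15 and 19 percent of all genes. Under RLE 17 rose, against 28.3 percent of all genes, so rises were not clearly more frequent here than over all genes. The summed P450 level went from 816.4 and 816 CPM in DMSO to 2453 and 2492 CPM in U0126. The median over the P450 genes was -0.13 under TMM and 0.31 under RLE, so the rise was carried by a minority of the family. Expression of cyp-35A4 was 2.01 and 1.79 CPM in DMSO and 230 and 246 CPM in U0126 (log2 fold change 7.13, SE 0.61, edgeR adjusted p = 3.51e-08). Expression of cyp-35A3 was 4.93 and 5.01 CPM in DMSO and 443 and 458 CPM in U0126 (log2 fold change 6.67, SE 0.71, edgeR adjusted p = 4.755e-07). The groups were far apart for both genes, and replicates differed little. Expression of cyp-35C1 was 32.9 and 28.3 CPM in DMSO and 538 and 536 CPM in U0126. Expression of cyp-35A2 was 59.7 and 49.9 CPM in DMSO and 426 and 435 CPM in U0126 (log2 fold change 3.14, SE 0.26, edgeR adjusted p = 2.51e-08). Further members, cyp-35A5 (from 3.38 and 3.40 to 81.9 and 83.8 CPM), cyp-35A1, cyp-35B2 and cyp-35D1, also rose under both scalings. Counts of such closely related genes are uncertain where reads can be shared. The family was not uniform: cyp-35B1 stood at 6.85 and 7.64 CPM in DMSO and 7.89 and 8.16 in U0126 and was not called (edgeR adjusted p = 0.75), and cyp-42A1 and cyp-33A1 fell. Of these, cyp-35B2, cyp-35D1, cyp-42A1 and cyp-33A1 were chosen after their values were seen.

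Other genes among the 12 largest rises were near 0 without the drug. R05D8.9 had 0 counts in both DMSO libraries and 4.999 and 5.82 CPM in U0126, at least 49.2-fold higher (floor of 3 counts over the DMSO group). The stdh-2 gene, named as a steroid dehydrogenase family member, was at 0 and 0.0597 CPM in DMSO and 10.7 and 12.5 CPM in U0126. E02C12.10 was at 0 and 0.119 CPM in DMSO and 8.55 and 9.48 CPM in U0126. The C-type lectin gene clec-206 was at 0.639 and 0.895 CPM in DMSO and 20.4 and 22.3 CPM in U0126. It was the only member of 140 C-type lectin genes that rose under both scalings, while 21 fell, against 15 and 19 percent of all genes. In each of these genes the groups were separated, as the rule for naming them required, with the DMSO libraries at or close to 0.

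Conjugating enzymes moved in both directions, and the balance depended on the scaling. Of 65 UDP-glucuronosyltransferase genes 7 rose and 12 fell under both scalings, against 15 and 19 percent of all genes. Under RLE 11 rose and 12 fell, and under TMM 7 rose and 19 fell, the falls going to 12 and 11 without U0126 replicate 1 and U0126 replicate 2. Their summed level was 1046 and 1073 CPM in DMSO and 1091 and 1119 CPM in U0126, a small difference. In ugt-1 the levels were 2.74 and 3.94 CPM in DMSO and 11.8 and 12.5 CPM in U0126 (log2 fold change 2.02, SE 0.31, edgeR adjusted p = 4.14e-05). In ugt-48 they were 14.5 and 16.47 CPM in DMSO and 4.61 and 5.16 CPM in U0126 (log2 fold change -1.499, SE 0.20, edgeR adjusted p = 1.06e-05). Of 44 glutathione transferase genes 3 rose and 7 fell under both scalings, but 9 rose and 7 fell under RLE and 3 rose and 11 fell under TMM. Among the falls, gst-27 was at 57.8 and 60.2 CPM in DMSO and 16.8 and 17.3 CPM in U0126. Of 34 ABC transporter genes 2 rose and 9 fell, among the latter mrp-1, pgp-4 and pgp-12. Nuclear hormone receptor genes, many of which encode ligand-regulated transcription factors, fell in 66 of 189 cases and rose in 4 under both scalings. More fell under TMM, and that count dropped by over 1.5 times, to 69, without U0126 replicate 1. The receptor gene nhr-68 was at 81.4 and 77.6 CPM in DMSO and 16.9 and 18.3 CPM in U0126.

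The rise in the summed P450 level was present early and was larger at 6 h than at 18 h. The summed P450 level in N2 was 649 and 761 CPM in DMSO and 2097 and 2184 CPM in U0126 at 2 h, and 772 and 789 CPM in DMSO and 5115 and 5061 CPM in U0126 at 6 h. At 18 h it was lower in both U0126 libraries than in either 6 h one. Tested gene by gene, the response was lower at 18 h than at 6 h under both scalings in 5 of 70 P450 genes, against 1.34 percent of all genes. It was not called in cyp-35A4 (edgeR adjusted p 0.0859 under TMM and 0.101 under RLE), cyp-35A3 (0.1055 and 0.121), cyp-35A2 or cyp-35C1. Some genes called at 6 h had returned to the vehicle level. The glutathione transferase gene gst-33, chosen after its values were seen, was at 42.9 and 49.2 CPM in U0126 at 6 h, against 1.91 and 2.46 CPM at 18 h, where DMSO stood at 2.01 and 2.09 CPM. The gene E02C12.6, chosen in the same way, went from 267 and 303 CPM in U0126 at 6 h to 7.38 and 9.12 CPM at 18 h, still above the 1.28 and 1.07 CPM of DMSO.

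**Figure D2:**
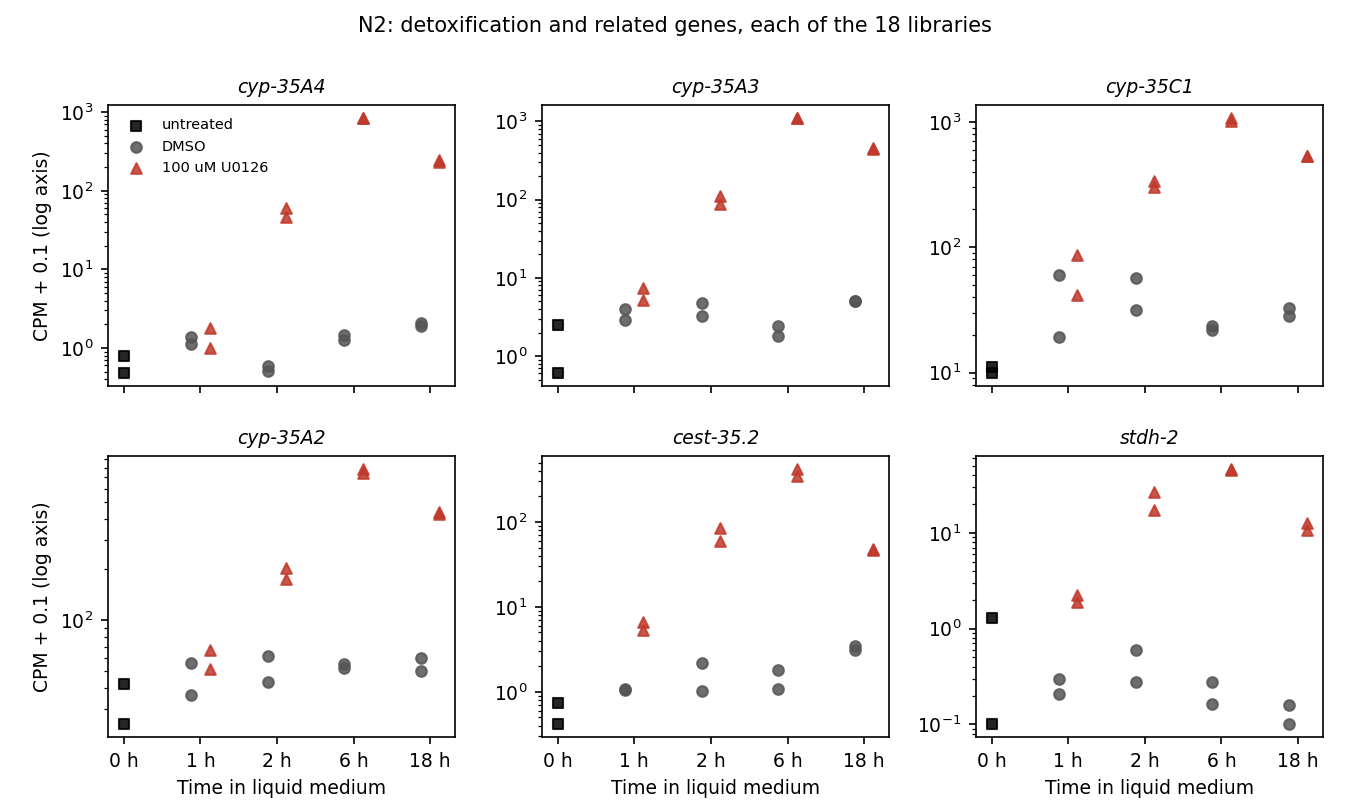
Expression of 6 genes in the N2 libraries at 0, 1, 2, 6 and 18 h (x axis), as CPM plus 0.1 on a log axis (y axis); squares are untreated worms, circles DMSO and triangles 100 uM U0126, 1 symbol per library. U0126 libraries lie above DMSO from 2 h on, and in cyp-35A3 they stand at 443 and 458 CPM at 18 h.

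The 12 largest falls came close to 0 in U0126, and among them were collagen, cuticlin and epidermal genes. The cuticle collagen gene col-165 was at 107 and 151 CPM in DMSO and 1.09 and 0.720 CPM in U0126 (log2 fold change -6.95, SE 1.00, edgeR adjusted p = 7.17e-05). The collagen gene col-74, named from the collagen list and not among the 12, was at 110 and 148 CPM in DMSO and 1.91 and 1.14 CPM in U0126 (log2 fold change -6.21, SE 0.81, edgeR adjusted p = 6.04e-06). Both DMSO libraries were more than 50-fold above both U0126 libraries in these genes. The cuticlin gene cut-2 was at 111 and 137 CPM in DMSO and 1.56 and 0.960 CPM in U0126. The hedgehog-related gene wrt-1 was at 51.2 and 49.9 CPM in DMSO and 0.703 and 0.360 CPM in U0126, and glf-1, which encodes the UDP-galactopyranose mutase needed for surface glycans, at 59.5 and 59.0 CPM and 0.547 and 0.720 CPM. The osm-8 gene, which encodes a mucin-like protein of the epidermis, was at 7.40 and 6.80 CPM in DMSO and had 0 counts in both U0126 libraries, at least 99.1-fold lower (floor of 3 counts over the U0126 group). The other falls among the 12 largest were grl-7, a ground-like gene, and F49D11.6, Y64H9A.2, C38C6.3, F18C5.5, F58E6.3 and C14A4.9. Of the 12, 8 lost their call when at least 1 library was left out, with adjusted p values of 0.0506 to 0.192. These were osm-8 and F18C5.5 (without U0126 replicate 1), Y64H9A.2, C14A4.9, cut-2 and glf-1 (without either U0126 replicate), C38C6.3 (without either U0126 replicate or DMSO replicate 2) and grl-7 (without any 1 of the 4).

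In the early embryo, collagen and molting lists, falls outnumbered rises under both scalings. They did so over all genes as well, of which 19 percent fell and 15 percent rose, but by less. Of 35 early embryonic zygotic genes 18 fell and 2 rose under both scalings (median log2 fold change -2.01 under TMM and -1.56 under RLE), while DESeq2 called 9 lower and 3 higher. Among them were the posterior Hox genes php-3, at 12.7 and 11.4 CPM in DMSO and 2.93 and 2.64 CPM in U0126, and nob-1, and the homeobox gene ceh-27. Of 30 molting genes 9 fell and 1 rose, the latter being nhr-23, a regulator of the molt. Of 135 cuticle collagens 32 fell and 2 rose, so rises were rarer than the 15 percent of all genes. Falls were not clearly more frequent than the 19 percent of all genes. The late embryo and hatching list was more evenly split, with 3 of 20 falling and 2 rising under both scalings, and 8 and 2 under TMM. Under RLE and in DESeq2, 3 fell and 4 rose. The epidermal GATA factor gene elt-3 was at 24.8 and 27.7 CPM in DMSO and 5.55 and 6.36 CPM in U0126 (log2 fold change -1.97, SE 0.20, edgeR adjusted p = 3.28e-07). Under TMM, without DMSO replicate 1, DMSO replicate 2, U0126 replicate 1 or U0126 replicate 2 in turn, the early embryo falls went from 20 to 16, 14, 11 and 9, the collagen falls from 40 to 26, 18, 12 and 8, and the molting falls from 13 to 11, 9, 6 and 4. The hatching protease gene hch-1, chosen after its values were seen, was at 95.7 and 102 CPM in DMSO and 37.3 and 43.9 CPM in U0126 and was not called under either scaling. In whole animals, fewer cells of a type and less RNA per cell cannot be told apart, and this holds for every list.

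These cuticle genes had been on in both treatments at 6 h. In col-165 the 6 h levels were 63.3 and 63.6 CPM in DMSO and 42.2 and 42.8 CPM in U0126, and no library of 1 or 2 h exceeded 0.84 CPM. The cuticlin gene cut-3, chosen after its values were seen, was at 81.2 and 81.8 CPM in DMSO and 50.9 and 54.01 CPM in U0126 at 6 h, then at 140 and 182 CPM in DMSO and 2.77 and 3.001 CPM in U0126 at 18 h. The level thus went up in DMSO and down in U0126 between these times. The 125 genes called under both scalings with a log2 fold change below -4 and at least 5 CPM in DMSO, a set picked for its fall and so given only as a description, behaved alike in the other groups. Their median level was 0.241 CPM in DMSO at 2 h, 7.02 CPM in DMSO and 5.26 CPM in U0126 at 6 h, and 12.5 CPM in DMSO and 0.396 CPM in U0126 at 18 h. In 113 of the 125 both DMSO libraries of 6 h were above both of 2 h, and the share of all genes that do so was not computed. In PL worms at 18 h the median was 0.162 CPM in DMSO and 0.0830 CPM in U0126, near 0 in both treatments. The summed molting list, which these genes in part overlap, was 1499 and 1653 CPM in DMSO at 6 h, 1590 and 1776 CPM in DMSO at 18 h and 529 and 563 CPM in U0126 at 18 h.

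**Figure D3:**
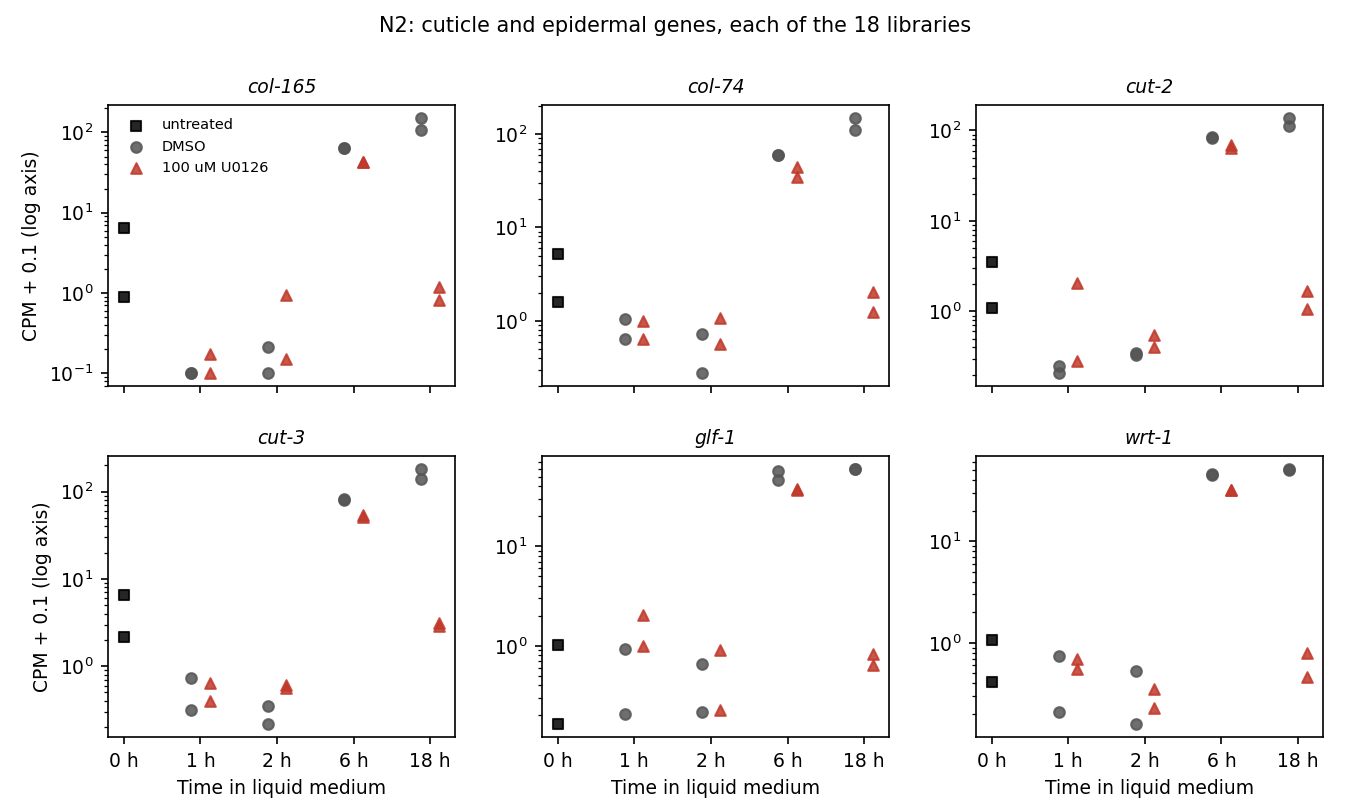
Expression of 6 cuticle and epidermal genes in the N2 libraries at 0, 1, 2, 6 and 18 h (x axis), as CPM plus 0.1 on a log axis (y axis); squares are untreated worms, circles DMSO and triangles 100 uM U0126, 1 symbol per library. Both treatments are high at 6 h, and at 18 h only the DMSO circles are, with col-165 at 107 and 151 CPM against 1.09 and 0.720 in U0126.

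Meiotic, mitotic, P granule and germline regulator lists held larger shares of rises than all genes did. Of 42 genes for the meiotic axis, synapsis and recombination 31 rose under both scalings and 41 under RLE, against 15 and 28.3 percent of all genes. In edgeR, in DESeq2 or at an unadjusted p under 0.05, 0 of them fell. Their median log2 fold change was 0.88 under TMM and 1.33 under RLE. The axis gene him-3 was at 78.5 and 88.1 CPM in DMSO and 150 and 151 CPM in U0126 (log2 fold change 1.02, SE 0.14, edgeR adjusted p = 1.05e-05). The synaptonemal complex gene syp-1 was at 39.8 and 37.6 CPM in DMSO and 63.6 and 64.5 CPM in U0126, and the nuclease gene xpf-1 at 89.6 and 87.3 CPM and 188 and 203 CPM. In all 3 genes every U0126 library was above both DMSO libraries, which the rule for naming them required. Of 54 mitosis and cell division genes 29 rose under both scalings and 46 under RLE, against the same shares of all genes, and 0 fell by any of the 3 counts. Among the rises spd-5, a pericentriolar scaffold gene, was at 365 and 369 CPM in DMSO and 662 and 683 CPM in U0126. Of 37 DNA replication genes 8 rose under both scalings and 26 under RLE, against 15 and 28.3 percent of all genes. Under TMM without N2 untreated replicate 2, 31 rose, so here the count depended on the scaling and on that library. Under TMM, without DMSO replicate 1, DMSO replicate 2, U0126 replicate 1 or U0126 replicate 2 in turn, the replication rises went from 8 to 3, 2, 3 and 3.

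P granule and germline small RNA genes rose in 27 of 42 cases under both scalings, against 15 percent of all genes. The piRNA Argonaute gene prg-1 was at 289 and 303 CPM in DMSO and 682 and 697 CPM in U0126 (log2 fold change 1.39, SE 0.18, edgeR adjusted p = 5.92e-06). The Argonaute genes csr-1 (338 and 327 CPM in DMSO, 547 and 546 CPM in U0126) and ppw-2 (99.5 and 88.7 CPM, 234 and 246 CPM) rose with it. Of 33 proteasome genes 24 rose under both scalings and 33 under RLE, against 15 and 28.3 percent of all genes, and 0 fell by any of the 3 counts. Under TMM the 27 P granule rises went to 16 without DMSO replicate 2. The regulatory particle gene rpn-5 was at 239 and 234 CPM in DMSO and 368 and 382 CPM in U0126.

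Of 30 regulators of germline stem cells, meiotic entry and sex, 17 rose under both scalings and 25 under RLE, against 15 and 28.3 percent of all genes. By any of the 3 counts, 0 fell. Under TMM the rises went to 10, 9 and 10 without DMSO replicate 1, DMSO replicate 2 and U0126 replicate 1. The stem cell regulator fbf-1, which encodes a PUF RNA-binding protein, was at 24.4 and 17.7 CPM in DMSO and 59.2 and 60.3 CPM in U0126 (log2 fold change 1.67, SE 0.29, edgeR adjusted p = 0.000129). Its paralog fbf-2 was at 17.5 and 16.23 CPM in DMSO and 30.2 and 32.2 CPM in U0126. The PUF gene puf-8 was at 133 and 117 CPM in DMSO and 248 and 257 CPM in U0126 (log2 fold change 1.18, SE 0.40, edgeR adjusted p = 0.0201), a call that was lost without any 1 of the 4 libraries (adjusted p 0.0642 without DMSO replicate 1, 0.114 without DMSO replicate 2, 0.0709 without U0126 replicate 1 and 0.0677 without U0126 replicate 2). Both sperm-promoting and oocyte-promoting regulators were higher in U0126. Among the former, fem-3 was at 51.6 and 50.95 CPM in DMSO and 109 and 112.2 CPM in U0126, and fog-1 at 21.1 and 23.03 CPM and 42.3 and 41.3 CPM, both called under both scalings. The tra-2 gene, which promotes female fate, was at 106 and 122 CPM in DMSO and 164.6 and 163 CPM in U0126, with an edgeR adjusted p of 0.0521 under TMM, 0.00261 under RLE and 1.2e-05 under TMM without N2 untreated replicate 2. The translational repressor gene gld-1 (580 and 524 CPM in DMSO, 1057 and 1144 CPM in U0126) and the Notch receptor gene glp-1 (304 and 308 CPM, 561 and 582 CPM) passed under RLE only, with edgeR adjusted p of 0.0629 and 0.0667 under TMM, and of 0.000133 and 1.7e-05 without N2 untreated replicate 2. The sperm-fate gene fog-3 was at 1.37 and 1.55 CPM in DMSO and 3.63 and 2.16 CPM in U0126, and was called only without N2 untreated replicate 2 (edgeR adjusted p 0.243 under TMM and 0.107 under RLE with it, 0.00444 under TMM without it).

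Oocyte genes had higher levels in U0126, but with a wide model error. Of 35 oocyte and maternal RNA regulators 8 rose under both scalings and 20 under RLE, against 15 and 28.3 percent of all genes. Under TMM without N2 untreated replicate 2, 25 rose. In edgeR or DESeq2 0 fell, with 1 lower at an unadjusted p under 0.05. The 8 rises went to 4, 2, 3 and 5 without DMSO replicate 1, DMSO replicate 2, U0126 replicate 1 and U0126 replicate 2. Their summed level was 9818 and 9403 CPM in DMSO and 16340 and 16560 CPM in U0126. The maternal regulator lin-41 was at 371 and 338 CPM in DMSO and 755 and 774 CPM in U0126, with an edgeR adjusted p of 0.0829 under TMM, 0.0229 under RLE and 0.000112 without N2 untreated replicate 2. The zinc finger gene oma-1, needed for oocyte maturation, was at 344 and 350 CPM in DMSO and 620 and 646 CPM in U0126 (edgeR adjusted p 0.0535 under TMM, 0.00817 under RLE, 0.00125 without N2 untreated replicate 2). Its paralog oma-2 was at 502 and 471 CPM in DMSO and 738 and 763 CPM in U0126 and was called only without that library (edgeR adjusted p 0.329 under TMM with it, 0.0056 without it). The yolk receptor gene rme-2, at 1018 and 994 CPM in DMSO and 1650 and 1664 CPM in U0126, was not called under either scaling. Of 21 eggshell genes 4 rose under both scalings and 8 under RLE, against 15 and 28.3 percent of all genes, and 12 rose under TMM without N2 untreated replicate 2. Among the 4 were sqv-4, perm-5 and perm-3. All 3 lost their call without a library, sqv-4 without DMSO replicate 2 (adjusted p 0.0534) and perm-5 and perm-3 without any 1 of the 4 (adjusted p up to 0.139). In all these genes the 2 groups of libraries did not overlap, which was a condition for naming sqv-4, perm-5 and perm-3. The share of all genes without overlap was not computed, so for the other genes this is only a description.

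Major sperm protein messages stayed low. The 31 major sperm protein genes, whose near-identical copies cannot be counted apart with certainty, summed to 0.365 and 0.239 CPM in DMSO and 17.8 and 1.86 CPM in U0126. The U0126 replicates thus differed from one another by more than the lower of them differed from DMSO. Of the 30 tested, edgeR called 0 under either scaling and 0 had an unadjusted p under 0.05, 2 rose without N2 untreated replicate 2, and DESeq2 called 20 higher. The 43 other sperm genes summed to 209 and 195 CPM in DMSO and 382 and 366 CPM in U0126, with medians of 0.72 under TMM and 1.17 under RLE, and DESeq2 called 14 of them higher. In edgeR 2 rose under both scalings, cpb-1 (74.4 and 61.8 CPM in DMSO, 154 and 153 CPM in U0126), which encodes a cytoplasmic polyadenylation element binding protein, and spe-39 (76.6 and 72.4 CPM, 141 and 146 CPM), a vesicle trafficking gene.

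**Figure D4:**
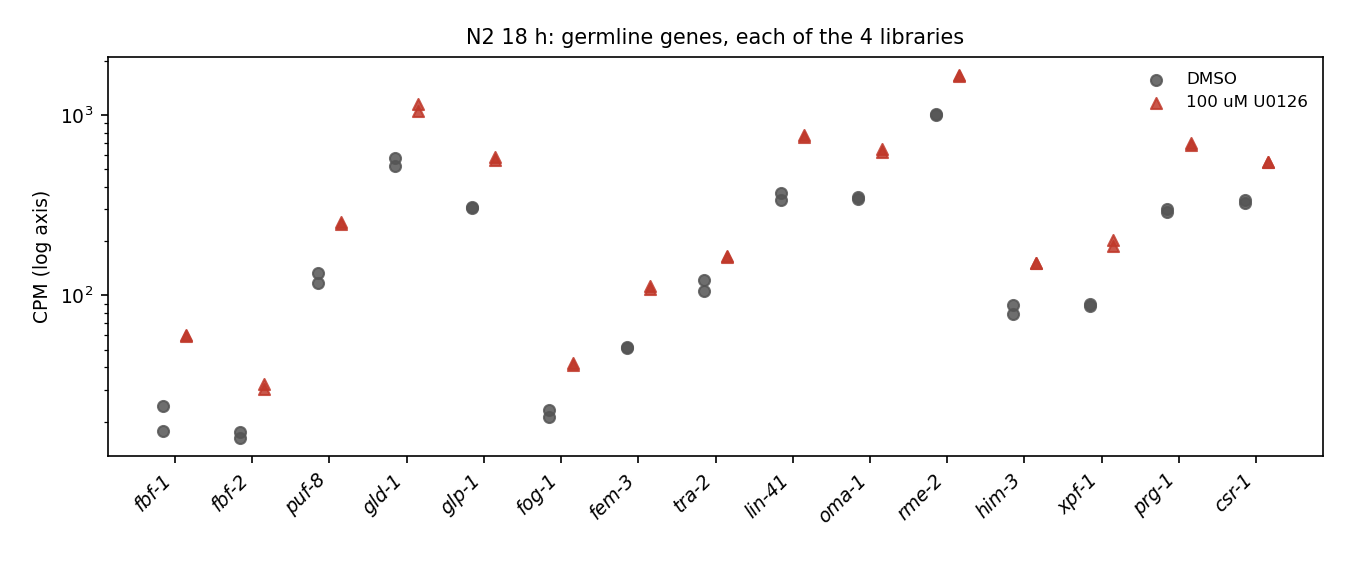
Expression of 15 germline genes in N2 at 18 h, as CPM on a log axis (y axis), with DMSO libraries as circles and 100 uM U0126 libraries as triangles, 2 per group. In each gene both triangles lie above both circles, which was a condition for naming him-3, xpf-1, prg-1 and csr-1. Of the others, gld-1, glp-1, tra-2, lin-41 and oma-1 passed the test under RLE only and rme-2 under neither scaling. The share of all genes without overlap was not computed.

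Genes of the targeted pathway were called in both directions, and mek-2, the gene of the drug target, was not called. The MEK gene mek-2 was at 79.2 and 82.8 CPM in DMSO and 68.4 and 74.3 CPM in U0126 (log2 fold change -0.02, SE 0.19, edgeR adjusted p = 0.963; 0.44 and 0.0622 under RLE). The ERK gene mpk-1 was at 167 and 162 CPM in DMSO and 232 and 229 CPM in U0126, with an edgeR adjusted p of 0.0528 under TMM, 0.00216 under RLE and 2.5e-05 under TMM without N2 untreated replicate 2. The lip-1 gene, which encodes a phosphatase that dampens ERK, was at 72.2 and 62.2 CPM in DMSO and 108 and 106 CPM in U0126 (edgeR adjusted p 0.147 under TMM, 0.0286 under RLE and 0.0132 under TMM without N2 untreated replicate 2). Of 25 RAS-ERK pathway genes 7 rose and 4 fell under both scalings, against 15 and 19 percent of all genes. The balance turned with the scaling, from 7 rises and 9 falls under TMM to 12 and 4 under RLE, and the 7 rises went to 5, 3, 5 and 4 without DMSO replicate 1, DMSO replicate 2, U0126 replicate 1 and U0126 replicate 2. The falls included the epidermal growth factor receptor gene let-23 (34.8 and 33.8 CPM in DMSO, 14.2 and 15.7 CPM in U0126), the scaffold gene soc-2 and the GTPase-activating protein gene gap-1.

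Neuronal and muscle genes fell more often than all genes did. Of 45 neuronal genes 31 fell and 0 rose under both scalings, against 19 and 15 percent of all genes. Under TMM 41 fell, against 30.4 percent of all genes. The touch neuron tubulin genes mec-7 (58.7 and 59.6 CPM in DMSO, 14.8 and 17.1 CPM in U0126) and mec-12 fell, as did unc-18, which acts in synaptic vesicle release. Of 45 muscle sarcomere genes 24 fell and 0 rose under both scalings, against the same 19 and 15 percent. The troponin I gene tni-4 was at 91.1 and 117 CPM in DMSO and 19.8 and 19.9 CPM in U0126 (log2 fold change -2.22, SE 0.20, edgeR adjusted p = 6.16e-08), and the troponin C gene tnc-2 at 59.6 and 70.5 CPM and 9.34 and 9.90 CPM. For rises, 0 neuronal and 1 muscle gene were higher at an unadjusted p under 0.05, and DESeq2 called 1 and 3 higher. Of 32 somatic gonad and vulva genes 9 fell and 2 rose, so falls were not clearly more frequent here than over all genes. Their summed level was 4431 and 4570 CPM in DMSO and 3952 and 4026 CPM in U0126. Among the 9 was ceh-18, a homeobox gene of the gonadal sheath.

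Between 6 h and 18 h the summed neuronal level was higher at 18 h in DMSO and similar in U0126, while the summed muscle level was higher at 18 h in DMSO and lower in U0126. The summed neuronal level was 1597 and 1500 CPM in DMSO and 1464 and 1403 CPM in U0126 at 6 h, against 2781 and 2849 CPM in DMSO and 1410 and 1450 CPM in U0126 at 18 h. The summed muscle level was 10780 and 10370 CPM in DMSO and 8772 and 9752 CPM in U0126 at 6 h, against 14830 and 15870 CPM in DMSO and 6278 and 6245 CPM in U0126 at 18 h. Single muscle genes differed in this. In tni-4 the 6 h levels were 23.6 and 22.3 CPM in DMSO and 20.3 and 18.0 CPM in U0126, close to the 18 h U0126 levels. The troponin T gene tnt-3 went from 48.6 and 67.05 CPM in U0126 at 6 h to 25.15 and 24.01 CPM at 18 h, and from 91.4 and 87.2 CPM to 98.4 and 113 CPM in DMSO. The intestine list summed to 12890 and 13420 CPM in DMSO and 9128 and 8737 CPM in U0126 at 6 h, and to 13020 and 12980 CPM and 5833 and 6060 CPM at 18 h. The early embryo list summed to 521 and 546 CPM in DMSO and 444 and 437 CPM in U0126 at 18 h, so it too was higher in both DMSO libraries, and the part of embryos carried in the uterus in the muscle and neuronal values was not tested.

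Intestinal, metabolic and immune genes were lower in U0126. Of 34 intestine genes 18 fell and 1 rose under both scalings. Over all genes 19 percent fell and 15 percent rose, which is the background for each list here. The aspartyl protease gene asp-6 was at 1274 and 1243 CPM in DMSO and 431 and 463 CPM in U0126 (log2 fold change -1.33, SE 0.15, edgeR adjusted p = 1.75e-06). The sodium-proton exchanger gene nhx-2 was at 74.7 and 80.7 CPM in DMSO and 19.7 and 20.1 CPM in U0126. Of 28 fat synthesis genes 9 fell and 0 rose under both scalings, with 5 rising under RLE and 1 higher at an unadjusted p under 0.05 under TMM, and DESeq2 called 6 higher. The phosphocholine synthesis gene pmt-1 was at 223 and 239 CPM in DMSO and 69.0 and 69.6 CPM in U0126, and the desaturase gene fat-3 at 176 and 191 CPM and 63.7 and 62.4 CPM. Of 41 fasting and fat use genes 14 fell and 4 rose, the rises going to 0 under TMM without any 1 of the 4 libraries, with acdh-1, an acyl-CoA dehydrogenase gene, at 1216 and 1208 CPM in DMSO and 406 and 405 CPM in U0126. Of 85 lysozyme, antimicrobial peptide and infection-response genes 26 fell and 2 rose under both scalings. Under TMM 41 fell, and 23, 23 and 22 did without DMSO replicate 2, U0126 replicate 1 and U0126 replicate 2. The lysozyme gene lys-7 was at 326 and 355 CPM in DMSO and 24.1 and 30.7 CPM in U0126 (log2 fold change -3.47, SE 0.42, edgeR adjusted p = 2.95e-06), and lys-4 at 219 and 203 CPM and 39.4 and 34.1 CPM.

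The yolk genes had the largest drop in counts but did not pass the test. The 6 vit genes took 9.34 and 8.26 percent of the counts in DMSO and 5.17 and 5.16 percent in U0126, and their near-identical copies are uncertain one by one. The vit-2 level was 30700 and 27890 CPM in DMSO and 17040 and 16920 CPM in U0126 (log2 fold change -0.62, SE 0.93, edgeR adjusted p = 0.603). Of the 7 yolk genes, rme-2 included, edgeR called 0 under either scaling, 0 had an unadjusted p under 0.05 and DESeq2 called 0. The fit of the 4 libraries alone called 6 lower and 1 higher.

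In some lists the balance of rises and falls changed with the scaling, as it did over all genes. Of those, 15 percent rose and 30.4 percent fell under TMM, and 28.3 percent rose and 19 percent fell under RLE. Of 81 cytosolic ribosomal protein genes 1 rose and 2 fell under TMM, against 29 and 2 under RLE, and their summed level was 66040 and 69780 CPM in DMSO and 66700 and 64400 CPM in U0126. The members called under both scalings were paralogs with opposite signs: rpl-11.1 was at 692 and 654 CPM in DMSO and 1062 and 1028 CPM in U0126, rpl-11.2 at 501 and 577 CPM and 164 and 163 CPM, and rpl-25.1 fell as well. Mitochondrial respiratory chain genes rose in 4 and fell in 11 of 44 cases under TMM, against 15 and 6 under RLE. The ATP synthase subunit genes asg-2 and asb-2 fell under both scalings. Of 21 cytosolic chaperone genes 2 rose and 5 fell under TMM, against 9 and 4 under RLE, with the small heat shock gene hsp-12.1 falling from 7.76 and 10.98 CPM to 0.586 and 0.840 CPM under both.

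**Figure D5:**
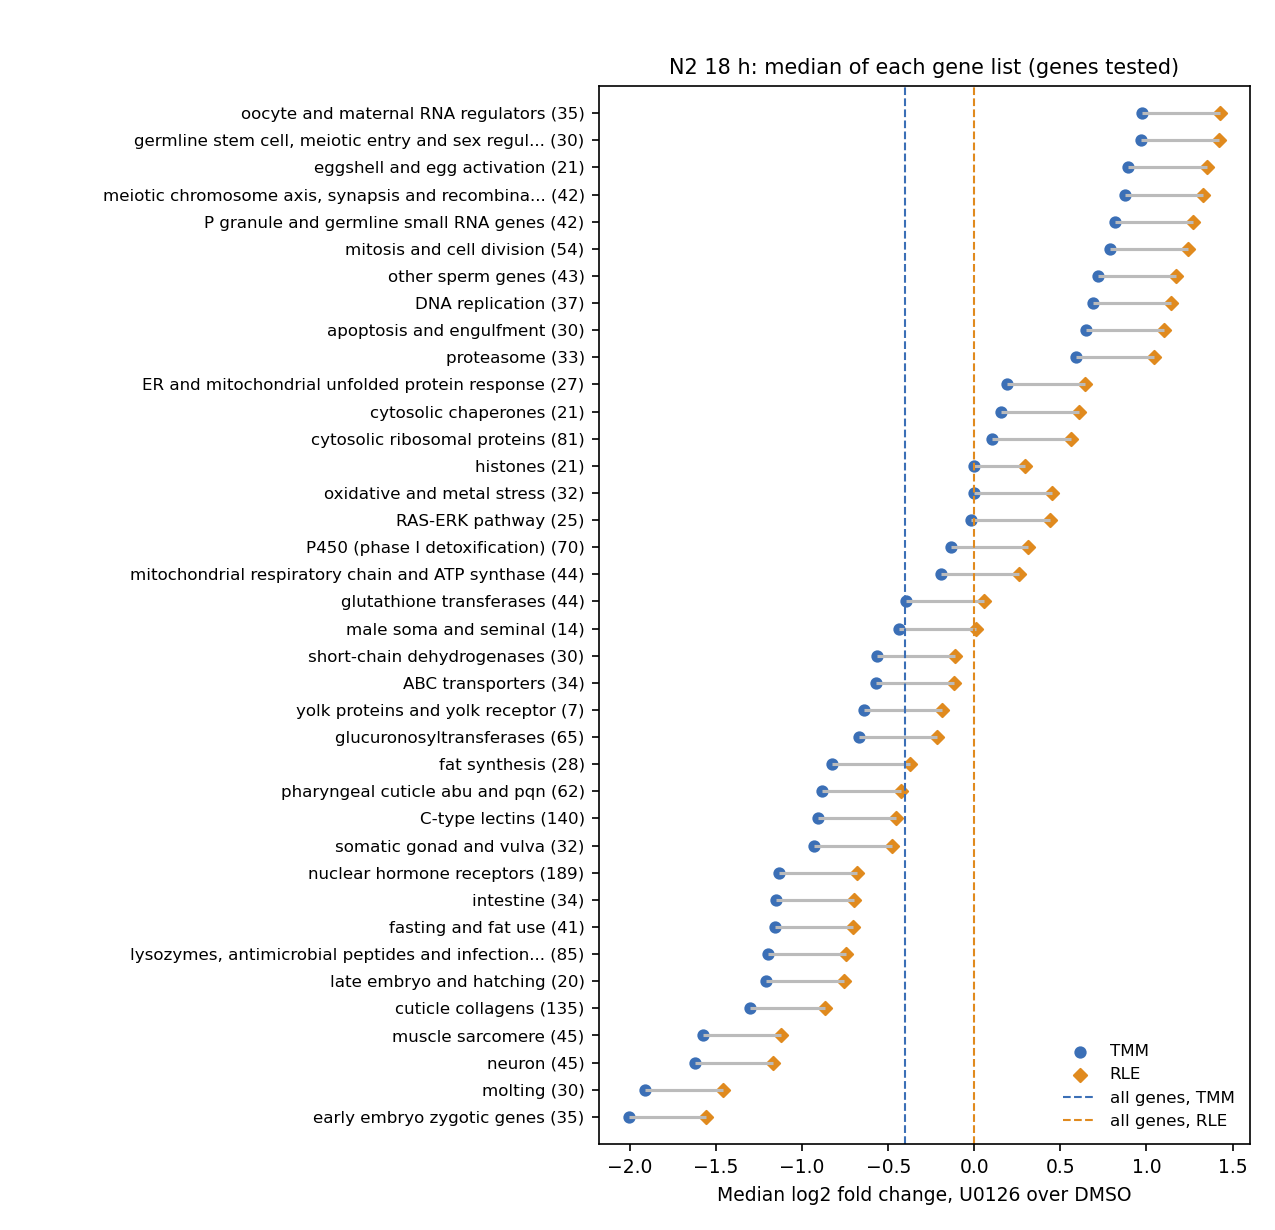
Median log2 fold change (x axis) of the members tested of each gene list (y axis, number tested in parentheses; the major sperm proteins, at or near 0 in DMSO, are left out), under TMM (circles) and RLE (diamonds), with dashed lines at the medians of all genes. Oocyte, meiotic, mitotic and P granule lists lie above both lines, and early embryo, molting, neuron and muscle lists below them.

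A few single genes rose steeply without belonging to any list. The isoprenylcysteine carboxyl methyltransferase gene icmt-1 was at 4.66 and 6.80 CPM in DMSO and 193 and 188 CPM in U0126 (log2 fold change 5.21, SE 1.11, edgeR adjusted p = 0.000864). Its next neighbour in the annotation, the acetylcholine receptor subunit gene unc-38, chosen after its values were seen, was at 10.5 and 11.8 CPM in DMSO and 41.9 and 42.8 CPM in U0126. The library kit does not mark the strand, so reads of neighbouring genes that overlap cannot be assigned with certainty. F46A9.1 was at 0.548 and 0.895 CPM in DMSO and 34.4 and 36.2 CPM in U0126. In PL worms, a genotype known for making sperm in place of oocytes, icmt-1 was already at 82.2 and 98.4 CPM and F46A9.1 at 43 and 58.7 CPM in DMSO at 18 h, and in the library N2 untreated replicate 2 they were at 57.0 and 138 CPM. W01C9.2, chosen after its values were seen, was at 7.67 and 9.79 CPM in DMSO and 74.9 and 80 CPM in U0126 but at 4.10 and 4.72 CPM in DMSO and 4.32 and 4.66 CPM in U0126 in PL.

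The response at 18 h was set against that of N2 at 6 h, which shares no library with it. The difference of the 2 responses was called higher at 18 h in 75 genes and lower in 220 under both scalings (0.456 and 1.34 percent of 16462), and without N2 untreated replicate 2 in 1358 and 1711 under TMM. By scaling, 75 were higher and 394 lower (2.39 percent) under TMM, and 694 higher (4.22 percent) and 227 lower (1.38 percent) under RLE. Under TMM the total of 469 fell to between 63 (without N2 DMSO 6 h replicate 1) and 151 (without N2 U0126 6 h replicate 2 or N2 DMSO 18 h replicate 1) when any 1 of the 8 libraries was left out. Of the 220 lower ones, 168 fell at 18 h under both scalings and 38 had risen at 6 h under TMM. Of the 75 higher ones, 68 rose at 18 h and 0 had risen at 6 h. These genes were picked by the difference, so such counts are largely fixed by the choice and only describe the sets. At 6 h itself 83 genes rose (0.504 percent) and 80 fell (0.486 percent) under both scalings, and 150 fell (0.911 percent) under TMM. Of the 83, 35 (42.2 percent) also rose at 18 h, where they were 1.42 percent of the rises. Of the 80 that fell at 6 h, 60 (75 percent) also fell at 18 h. Over all genes, 15 percent rose and 19 percent fell at 18 h under both scalings. Among the genes named by rule, the difference was called lower in col-165 (-6.39), col-74 (-5.63), tni-4 (-1.98) and elt-3 (-1.27), in log2 units under TMM, and higher in tra-3 (1.15), xpf-1 (1.03), prg-1 (1.00) and csr-1 (0.78).

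Against PL worms at 18 h, the drug response of N2 was called higher in 26 genes and lower in 65 under both scalings (0.158 and 0.395 percent). Without N2 untreated replicate 2 the total under TMM was 1508, of which 1294 were lower. Under TMM the total of 294 fell to between 78 (without PL DMSO replicate 2) and 194 (without PL U0126 replicate 1) when any 1 of the 8 libraries was left out. The 2 scalings disagree on the balance, with 26 higher and 268 lower (1.63 percent) under TMM and 454 higher (2.76 percent) and 65 lower under RLE. Of the 65, 62 fell in N2 at 18 h under both scalings and 0 fell in PL under TMM. As the 65 were picked by the difference, these counts are largely fixed by the choice. The intestinal exchanger gene nhx-2 fell in N2 (74.7 and 80.7 CPM to 19.7 and 20.1 CPM) while in PL it was at 17.5 and 20.8 CPM in DMSO and 14.4 and 22.9 CPM in U0126. The intestinal proton pump gene vha-6 was at 368 and 399 CPM in DMSO and 140 and 156 CPM in U0126 in N2, and at 211 and 236 CPM and 226 and 315 CPM in PL. The sex determination protease gene tra-3 was at 48.9 and 42.2 CPM in DMSO and 98.7 and 104.3 CPM in U0126 in N2, and at 40.8 and 39.4 CPM and 40.8 and 33.4 CPM in PL. For cyp-35A4 the log2 response was lower in N2 by 5.90, where the PL DMSO libraries were at 0.0695 and 0 CPM, so the difference rests on a level near 0, and the U0126 levels in PL were 290 and 494 CPM. In PL itself 1380 genes rose (8.38 percent) and 447 fell (2.72 percent) under both scalings, and 1865 rose (11.3 percent) under TMM. Of the 1380, 987 (71.5 percent) also rose in N2, where they were 40.0 percent of the rises, against 15 percent of all genes rising. Of the 447 that fell in PL, 204 (45.6 percent) also fell in N2, against 19 percent of all genes falling.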

How the data were processed

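The authors deposited 1 table of raw read counts per gene for each of 52 libraries, without normalization. The submitters' processing notes name CASAVA, TopHat, DESeq and the ce10 build. Versions, the counting tool, its strand setting and its gene models were not stated in the material used. The last 5 lines of each table, which name no gene, entered neither library sizes nor tests. In the 4 libraries compared, 49.8 to 50.2 percent of reads lay outside genes and 0.42 to 0.45 percent were ambiguous. Of 45461 gene IDs, 44936 were matched to Ensembl WBcel235 names, used for names and gene order only.

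edgeR 4.0.16 (R 4.3.3) fitted the 52 libraries in 1 model with a term for each of 29 groups, leaving 23 residual degrees of freedom. The filter kept 16462 genes that reached 1 CPM in 2 or more libraries. TMM and RLE factors were each used with the quasi-likelihood F test on the counts, and the call threshold was a Benjamini-Hochberg adjusted p of 0.05 over all genes kept. SE is the absolute log2 fold change over the root of the F statistic. CPM values use assigned counts, without scaling factors. The fitting script was tested on simulated data. Alternatives included DESeq2 1.42.0, other filters and scalings, other sets of libraries and leaving out each library, for which the TMM factors were kept.

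The genes named were the 12 largest rises and 12 largest falls among genes called in the same direction under both scalings, with a mean of 5 CPM or more in one group and no overlap between libraries. To these were added, under the same conditions, the 3 members of each of 39 lists with the smallest adjusted p, and 20 regulators. Others are said to be chosen after their values were seen. The libraries compared, the lists and the rules were chosen with earlier results of these data known, and lists are described by counts and medians, with no test. Replicates differed by more than sampling noise (chi-square per degree of freedom 4.09 in DMSO and 2.61 in U0126), so no library was counted as a copy.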

Additional observations from a re-analysis of the deposited data

Results flagged for a closer look

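Genes are listed here because the difference between 2 drug responses was itself called by edgeR at an adjusted p under 0.05 under both scalings. Values are differences in log2 response under TMM. The response of N2 at 18 h was lower than that at 6 h in col-165 (-6.39), F58E6.3 (-6.13), col-74 (-5.63), hsp-12.1 (-3.13), pqn-37 (-2.12), tnc-2 (-2.07), tni-4 (-1.98), ceh-18 (-1.67), ipp-5 (-1.63), nhx-2 (-1.55), ugt-48 (-1.47), rpl-11.2 (-1.38), ugt-46 (-1.36), gst-36 (-1.32), elt-3 (-1.27), pdi-6 (-1.22), asb-2 (-1.17), unc-18 (-1.17), asg-2 (-1.14), ucr-2.2 (-1.05) and acox-1.1 (-0.97). It was higher at 18 h in ctl-3 (1.38), ppw-2 (1.17), tra-3 (1.15), xpf-1 (1.03), prg-1 (1.00), cpb-1 (0.86), spd-5 (0.82) and csr-1 (0.78).

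At 18 h the response of N2 was lower than that of PL in cyp-35A4 (-5.90), cyp-35A3 (-5.30), tnc-2 (-2.26), tni-4 (-1.84), ugt-48 (-1.80), nhx-2 (-1.78), gst-27 (-1.51), vha-6 (-1.5), nuc-1 (-1.5) and acox-1.1 (-1.17). The PL DMSO libraries were near 0 for cyp-35A4 and cyp-35A3. It was higher in N2 in ppw-2 (1.87), tra-3 (1.41) and syp-1 (0.98).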

How the results depend on the processing

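The total of the main comparison, 7464 genes called, stayed within 1.5 times that count under RLE, total count scaling, either other filter, DESeq2 (8042), the N2 libraries alone, a robust fit, another TMM reference and the fit without N2 untreated replicate 2 (9783), though its split into rises and falls varied. The 4 libraries alone gave 11503, and leaving out 1 library gave 4018 to 5022. For the 18 h minus 6 h difference (469 genes), RLE gave 921, no filter 34, DESeq2 1872, only the libraries compared 8290, no N2 untreated replicate 2 3069, that with RLE 4498, and leaving out 1 library 63 to 151. For the N2 minus PL difference (294 genes), RLE gave 519, no filter 13, DESeq2 1050, only the libraries compared 3624, no N2 untreated replicate 2 1508, that with RLE 2407, the N2 DMSO 18 h replicate 1 reference 607, and leaving out 1 library 78 to 194. With the replicate number as a block the counts were 7176, 286 and 237. The numbers only name libraries: deviations of same-numbered libraries correlated at -0.0117. The log2 change of mek-2, -0.02 in the main test, became 0.2017 in the 4 libraries alone, 0.4424 there with RLE, and 0.433 without N2 untreated replicate 2 under RLE. The cause was not tested in any of these. Of 2839 values of 167 named genes under alternatives, 2669 kept direction and side of the threshold, 85 lost the call, 82 gained it and 3 reversed. Without the filter on low counts 23 named genes lost the call and 8 gained it. Of 149 named genes called under TMM, 19 lost the call without at least 1 library. Settings with N2 untreated replicate 2 removed and RLE together, and the other TMM reference, were chosen after seeing the data.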
